A study of Mus musculus with 9 samples.

Results

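The genes described here are the 10 of mouse pyruvate dehydrogenase control: the kinases Pdk1, Pdk2, Pdk3 and Pdk4, the phosphatases Pdp1 and Pdp2, and the complex subunits Pdha1, Pdhb, Dlat and Pdhx. They were taken by symbol from 32594 genes of the count table, and all 10 were found and passed the low-count filter. RNA came from hindlimb skeletal muscle of FVB/N mice, in 4 libraries of SMN delta 7 mice (SMA), a model of spinal muscular atrophy, and 5 libraries of wild type mice (WT). SMN delta 7 mice are known as animals that lack mouse Smn1 and carry human SMN transgenes. The labels name no age, treatment or further alleles, nor do they say whether the wild type mice carried a transgene. The comparison asks whether transcripts that set the switch between glucose and fat use differed between SMA and WT muscle.

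Pyruvate dehydrogenase sits in the mitochondrial matrix and turns pyruvate, the end product of glycolysis, into acetyl-CoA for the tricarboxylic acid cycle. Kinases of the Pdk family phosphorylate its E1 alpha subunit and switch the complex off, and phosphatases of the Pdp family remove that phosphate and switch it on. In skeletal muscle Pdk4 is known as the kinase gene that is induced in fasting, when fatty acids replace glucose as fuel. These are measurements of RNA, and neither phosphorylation nor the activity of the complex was measured.

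Libraries held 30746646 to 35087722 counts in SMA and 24917665 to 34094645 in WT. Smn1, the gene of the survival motor neuron protein, had 2.04 ± 0.570 CPM (counts-per-million after TMM scaling of each library total) in SMA and 13.0 ± 1.04 CPM in WT (SD, n = 4 and 5), and its low level matched the labels in every SMA library. Summed over 8 skeletal muscle markers, the level was 65828 to 79105 CPM in SMA and 115152 to 160679 CPM in WT. Of the 8 markers 6 fell, against 27.0% of all genes tested. In bulk tissue, fewer cells of a type and less RNA per cell cannot be told apart. Xist was expressed in 3 of 4 SMA libraries and in 1 of 5 WT libraries, and Y-linked genes in the others, so sex was unequal between the groups. Nothing in the labels says that replicates came from separate animals, so p-values reflect only how these libraries vary, and part of that variation may be technical.

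In SMA muscle Pdk4, Pdk2 and Pdp2 rose, while Pdha1, Pdhb and Pdhx fell. Pdk4 was 2.17-fold, Pdk2 1.48-fold and Pdp2 1.65-fold higher in SMA, and the levels of the 3 subunit genes that fell were 0.749, 0.715 and 0.716 of those in WT. Pdk1, Pdk3, Pdp1 and Dlat did not pass. The test was the quasi-likelihood test of edgeR, its p-values were adjusted by Benjamini-Hochberg over 15873 genes, and the threshold was 0.05. By role, 2 of 4 kinases, 1 of 2 phosphatases and 0 of 4 subunits rose, and 3 of 4 subunits fell. The 6 calls among 10 genes stand against 54.5% of all genes tested that passed, 27.5% that rose and 27.0% that fell, so the share of genes called was near the background. SMA and WT libraries did not overlap for those same 6 genes, against 44.2% of all genes tested. SMA lay above every WT library for 3 of the 10, against 22.6% of all genes, and below for 3, against 21.7%.

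**Figure D1:**
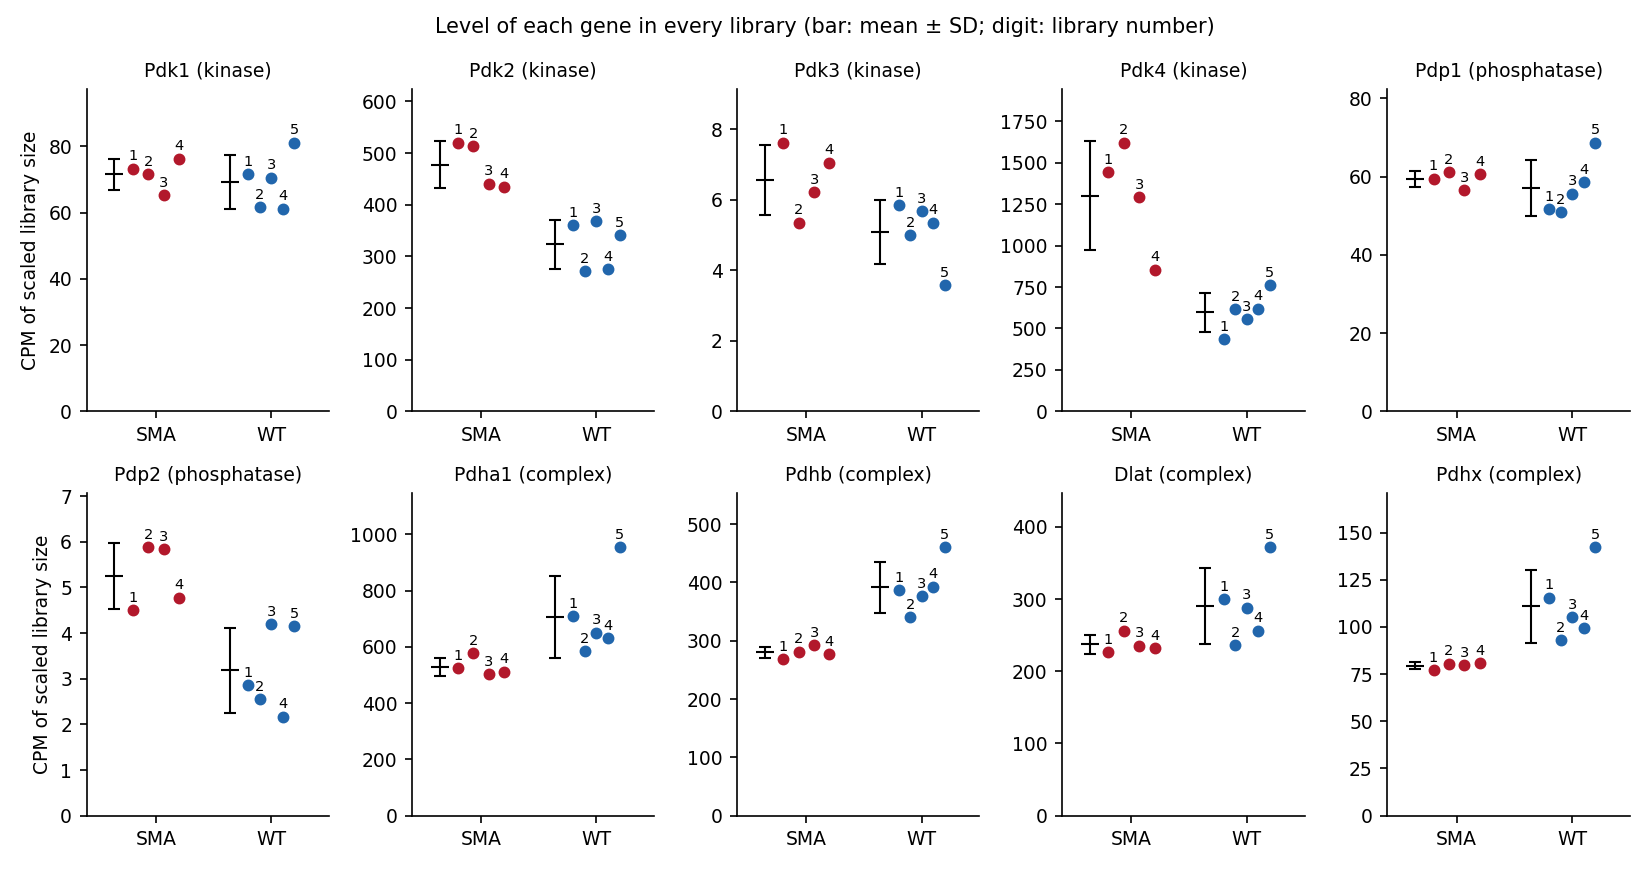
CPM of each of the 10 genes (vertical axes from 0) in every SMA library (red, left) and WT library (blue, right); digits are library numbers, and the bars to the left of the points are the mean ± SD (n = 4 and 5). Every SMA library lies above every WT library for Pdk2, Pdk4 and Pdp2 and below for Pdha1, Pdhb and Pdhx, and WT 5 is the highest WT library for all 4 subunit genes.

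Bases upstream of the annotated starts of the 3 genes that rose, and of Pdhb among those that fell, are shown because these genes moved in opposite directions, and they end before the most upstream start in RefSeq or GENCODE M21. Sequences are from RefSeq on GRCm38.p6 (mm10), are written 5′ to 3′ on the strand of the gene, and carry CCAAT boxes (CCAAT or its reverse complement ATTGG) and E-boxes (CACGTG) in capitals. The Pdk4 stretch is chr6:5496310-5496528 (minus strand), that of Pdk2 chr11:95041372-95041621 (minus), that of Pdp2 chr8:104591222-104591450 (plus) and that of Pdhb chr14:8173026-8173242 (minus).
Pdk4: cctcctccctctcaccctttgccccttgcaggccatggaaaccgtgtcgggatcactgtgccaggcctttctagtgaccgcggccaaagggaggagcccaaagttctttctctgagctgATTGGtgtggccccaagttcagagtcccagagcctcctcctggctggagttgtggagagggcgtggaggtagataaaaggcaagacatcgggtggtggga
Pdk2: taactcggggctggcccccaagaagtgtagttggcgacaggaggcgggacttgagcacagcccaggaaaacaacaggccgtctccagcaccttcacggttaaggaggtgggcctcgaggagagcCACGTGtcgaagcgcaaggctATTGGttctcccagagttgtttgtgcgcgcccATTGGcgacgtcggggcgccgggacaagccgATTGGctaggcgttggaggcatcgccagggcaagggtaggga
Pdp2: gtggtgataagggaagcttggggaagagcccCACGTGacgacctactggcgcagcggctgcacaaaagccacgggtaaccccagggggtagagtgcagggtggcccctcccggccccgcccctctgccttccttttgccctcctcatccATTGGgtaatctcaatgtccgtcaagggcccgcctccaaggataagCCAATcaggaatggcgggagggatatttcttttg
Pdhb: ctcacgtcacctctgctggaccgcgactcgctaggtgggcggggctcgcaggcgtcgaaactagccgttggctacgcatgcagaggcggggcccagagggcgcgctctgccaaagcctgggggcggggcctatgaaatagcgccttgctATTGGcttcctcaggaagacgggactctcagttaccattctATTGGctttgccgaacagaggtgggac

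The printed stretches hold 1 CCAAT box for Pdk4, 3 for Pdk2, 2 for Pdp2 and 2 for Pdhb. Windows of 250 bases before to 50 after a RefSeq start were found for 9 of the 10 genes, 11 windows in all, and were searched on both strands. CCAAT occurred in 6 of the 11 windows, against 37.4% of 32851 windows of all genes. The E-box CACGTG occurred in 2, those of Pdk2 and Pdp2, against 7.15% of all windows, and the overlapping hypoxia core ACGTG in 4, against 19.6%. None of the 11 windows held the forkhead letters TGTTTAC, found in 3.65% of all windows, or TATAAA, found in 13.6%. None held the nuclear receptor core AGGTCA (16.3% of all windows), its PPAR repeat of AGGTCA and AGGTCA with 1 base between them (0.0396%) or TCAAGGTCA of estrogen-related receptors (0.423%), both of which contain that core. The glucocorticoid element, AGAACA and TGTTCT with 3 bases between them, was in none of the 11 and in 0.00913% of all windows. A missing match says only that these letters are not in this window.

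Pdk4 (chromosome 6, 5483351 to 5496309, minus strand, mm10) encodes the kinase induced in fasting muscle. Its level was 1442, 1620, 1290 and 854 CPM in SMA libraries 1 to 4, against 437, 618, 558, 619 and 761 CPM in WT libraries 1 to 5. SMA 4 was the lowest SMA library and WT 5 the highest WT library, and the groups did not overlap. Pdk4 averaged 1301 ± 327 CPM in SMA and 598 ± 117 CPM in WT (SD, n = 4 and 5), and rose by 1.12 ± 0.19 on the log2 scale (SE; adjusted p = 2.86e-04 by edgeR). The change lay between 1.0 and 1.28 when 1 library was left out, the highest without SMA 4, and passed each time.

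Pdk2 (chromosome 11, 95026258 to 95041354, minus strand) encodes a widely expressed kinase of the family. It stood at 520, 514, 441 and 435 CPM in the SMA libraries, against 360, 271, 369, 275 and 341 CPM in the WT libraries. All 4 SMA libraries lay above all 5 WT libraries. Pdk2 averaged 477 ± 45.8 CPM in SMA and 323 ± 46.7 CPM in WT (SD, n = 4 and 5), and rose by 0.56 ± 0.12 on the log2 scale (SE; adjusted p = 0.00135 by edgeR).

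Pdk1 (chromosome 2, 71873224 to 71903858, plus strand), a kinase gene known as a target of hypoxia-inducible factor, had 73.2, 71.6, 65.2 and 76.3 CPM in SMA and 71.6, 61.7, 70.5, 61.1 and 81.1 CPM in WT. The groups overlapped, and its log2 fold change of 0.049 ± 0.093 (SE) did not pass (adjusted p = 0.677 by edgeR). Pdk3, the X-linked kinase gene (93764607 to 93832201, minus strand), was the lowest kinase gene, with 7.61, 5.35, 6.21 and 7.05 CPM in SMA and 5.85, 5.0, 5.68, 5.35 and 3.58 CPM in WT. Behind those levels stood 201 to 266 counts per SMA library and 101 to 155 per WT library. SMA 2 lay within the WT range and the other 3 SMA libraries above it. The log2 fold change of Pdk3 was 0.37 ± 0.16 (SE; adjusted p = 0.0615 by edgeR), and it passed without SMA 2 (0.45, adjusted p = 0.0377). With sex as a covariate it was 0.20 (adjusted p = 0.396).

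Pdp2 (chromosome 8, 104591451 to 104599026, plus strand) encodes a catalytic phosphatase subunit and was the rarest transcript of the 10. It had 4.49, 5.88, 5.84 and 4.77 CPM in SMA and 2.86, 2.55, 4.19, 2.17 and 4.15 CPM in WT, from 157 to 221 counts per SMA library and from 62 to 117 counts per WT library. The lowest SMA library, SMA 1, lay just above WT 3. Pdp2 rose by 0.72 ± 0.20 on the log2 scale (SE; adjusted p = 0.00753 by edgeR). Pdp1 (chromosome 4, 11958184 to 11966452, minus strand), the calcium-stimulated phosphatase of muscle, was more abundant, with 59.4, 61.2, 56.6 and 60.6 CPM in SMA and 51.7, 50.9, 55.6, 58.5 and 68.6 CPM in WT. Its SMA libraries all lay within the WT range, and its log2 fold change was 0.059 ± 0.091 (SE; adjusted p = 0.608 by edgeR).

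Among the subunits, Pdha1 (chromosome X, 160122209 to 160138413, minus strand) encodes E1 alpha, the subunit that the kinases phosphorylate. It had 523, 576, 504 and 511 CPM in SMA, against 709, 585, 650, 630 and 955 CPM in WT. The SMA values all lay below WT, with SMA 2 close to WT 2, while WT 5 stood 1.35-fold above the next WT library. Pdha1 fell by 0.42 ± 0.14 on the log2 scale (SE; adjusted p = 0.0192 by edgeR), and its change was -0.28 without WT 5 (adjusted p = 0.0203). The call was lost without SMA 4 (-0.40, adjusted p = 0.0502) and with sex as a covariate (-0.33, adjusted p = 0.127). Exons of Map3k15 on the opposite strand share 603 bases with Pdha1 in GENCODE M21, and the kit kept strand but the strand setting of the counting is not stated. Map3k15 had 1.47 ± 0.245 CPM in SMA and 0.878 ± 0.229 CPM in WT (SD, n = 4 and 5). Pdha2, the autosomal copy of Pdha1 known from testis, had at most 2 counts in any library.

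Pdhb (chromosome 14, 8165996 to 8173025, minus strand) encodes E1 beta, the partner of E1 alpha. Its values of 269, 281, 293 and 277 CPM in SMA lay below the 387, 340, 376, 393 and 461 CPM in WT. Pdhb fell by 0.48 ± 0.098 on the log2 scale (SE; adjusted p = 0.00105 by edgeR). Pdhx (chromosome 2, 103021075 to 103073513, minus strand) encodes the protein that anchors E3 to the core, and had 77.1, 80.6, 79.6 and 80.9 CPM in SMA and 116, 92.9, 105, 99.4 and 142 CPM in WT. The 4 SMA libraries were close together and all below WT. Pdhx fell by 0.48 ± 0.11 on the log2 scale (SE; adjusted p = 0.00277 by edgeR).

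Dlat (chromosome 9, 50634633 to 50659780, minus strand), the E2 acetyltransferase of the core, had 226, 256, 236 and 232 CPM in SMA and 299, 236, 288, 256 and 372 CPM in WT. SMA libraries 1, 3 and 4 were below every WT library and SMA 2 was not. The log2 fold change of -0.29 ± 0.12 (SE) missed the threshold (adjusted p = 0.0595 by edgeR), and passed by DESeq2 (-0.30, adjusted p = 0.0373). Without WT 2 it was -0.36 (adjusted p = 0.0206 by edgeR), and without WT 4 it was -0.33 (adjusted p = 0.0463). Without WT 5 the change of Dlat was smaller, -0.19 (adjusted p = 0.115), and it did not pass. Dld, which encodes the E3 subunit shared with related complexes and is not among the 10, had a log2 fold change of -0.26 ± 0.13 (adjusted p = 0.115 by edgeR), and passed without WT 2 (-0.34, adjusted p = 0.0464), while without WT 5 it was -0.15 (adjusted p = 0.257).

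WT 5 was the highest WT library for 7 of the 10 genes and for all 4 subunit genes, against 29.5% of all genes tested. It was 1.17-fold to 1.35-fold above the next WT library for the 4 subunit genes, and lowest of WT for Pdk3. The scaling factor of this library was the lowest of the 9, at 0.828. WT 5 was also the highest WT library for all 6 adipocyte markers and for 3 of 4 brown adipocyte markers. Ucp1 had 119 CPM in WT 5, against 11.3 to 40.8 CPM in the other WT libraries. WT 5 was highest for 5 of 8 skeletal muscle markers and for 0 of 4 fibroblast markers. A link of either trait to the subunit genes was not tested.

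The size of these changes depended on the scaling. Relative to total counts alone, the median over all genes tested stood at 0.24 on the log2 scale in place of 0.0060, and every change of the 10 genes moved up with it. Pdk4, Pdk2 and Pdp2 then had changes of 1.36, 0.80 and 0.98, and Pdk1 (0.29, adjusted p = 0.00354), Pdk3 (0.59, adjusted p = 0.0140) and Pdp1 (0.30, adjusted p = 0.00532) also passed by edgeR. Pdhb and Pdhx still passed, at -0.24 and -0.23, while Pdha1 at -0.17 did not (adjusted p = 0.162) and Dlat stood at -0.040. None of the 10 changed direction between these scalings, and 6 rose and 2 fell relative to total counts. Of all 15873 genes tested, 6376 rose and 2165 fell on that scale.

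**Figure D2:**
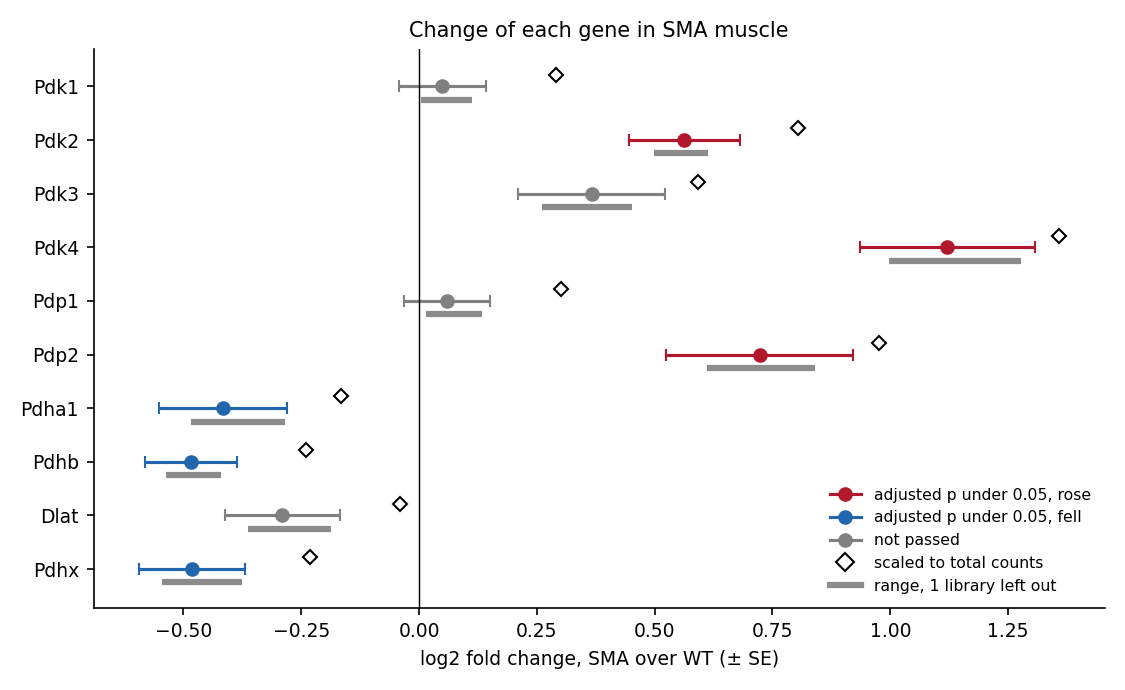
Log2 fold change of each gene, SMA over WT, with its SE (circles; red rose, blue fell, grey not passed), the value scaled to total counts (open diamonds) and the range when 1 library at a time was left out (thick grey lines). Circles run from -0.48 for Pdhb to 1.12 for Pdk4, and each diamond lies to the right of its circle.

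Ratios within a library need no scaling between libraries. Counts were divided by the length of all annotated exons of a gene before transcripts were compared. Summed over the 4 kinases and set against the mean of Pdha1 and Pdhb, the log2 ratio was 2.49, 2.48, 2.30 and 1.91 in SMA libraries 1 to 4, against 0.783, 1.15, 1.08, 1.01 and 0.843 in WT libraries 1 to 5. The groups did not overlap, and kinase transcripts per E1 transcript were 2.5-fold higher in SMA. The log2 ratio of Pdk4 alone to Pdha1, added after the values were seen, was 1.35 ± 0.353 in SMA and -0.15 ± 0.303 in WT (SD, n = 4 and 5). For Pdk2 to Pdha1, likewise added, it was 0.089 ± 0.098 in SMA and -0.88 ± 0.250 in WT. No test was made on these ratios, because they combine genes chosen with earlier results known.

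Kinase transcripts also outnumbered phosphatase transcripts by more in SMA. The log2 ratio of the 4 kinases to the 2 phosphatases was 5.39, 5.44, 5.25 and 4.78 in SMA, against 4.38, 4.53, 4.45, 4.35 and 4.40 in WT. SMA 4 came nearest to WT, and the groups did not overlap. Pdp2 made up 6.54% ± 0.923 of the phosphatase transcripts in SMA and 4.21% ± 1.02 in WT (SD, n = 4 and 5), and its lowest SMA value of 5.65% was next to the highest WT value of 5.63%.

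Within the kinase family Pdk4 and Pdk2 held nearly all transcripts in each library. Pdk4 took 69.9%, 72.6%, 71.0% and 61.8% of the kinase transcripts in SMA, against 49.8%, 64.8%, 55.4%, 64.5% and 64.4% in WT. SMA 4 lay inside the WT range, so the shares overlapped. Pdk2 took 28.9% ± 4.18 in SMA and 36.3% ± 6.42 in WT, also with overlap. Pdk1 took 1.79% ± 0.474 in SMA and 3.15% ± 0.322 in WT, without overlap, and Pdk3 took 0.501% ± 0.153 in SMA and 0.717% ± 0.184 in WT (SD, n = 4 and 5). Without division by length the difference of the Pdk1 share was -2.97 percentage points in place of -1.36.

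**Figure D3:**
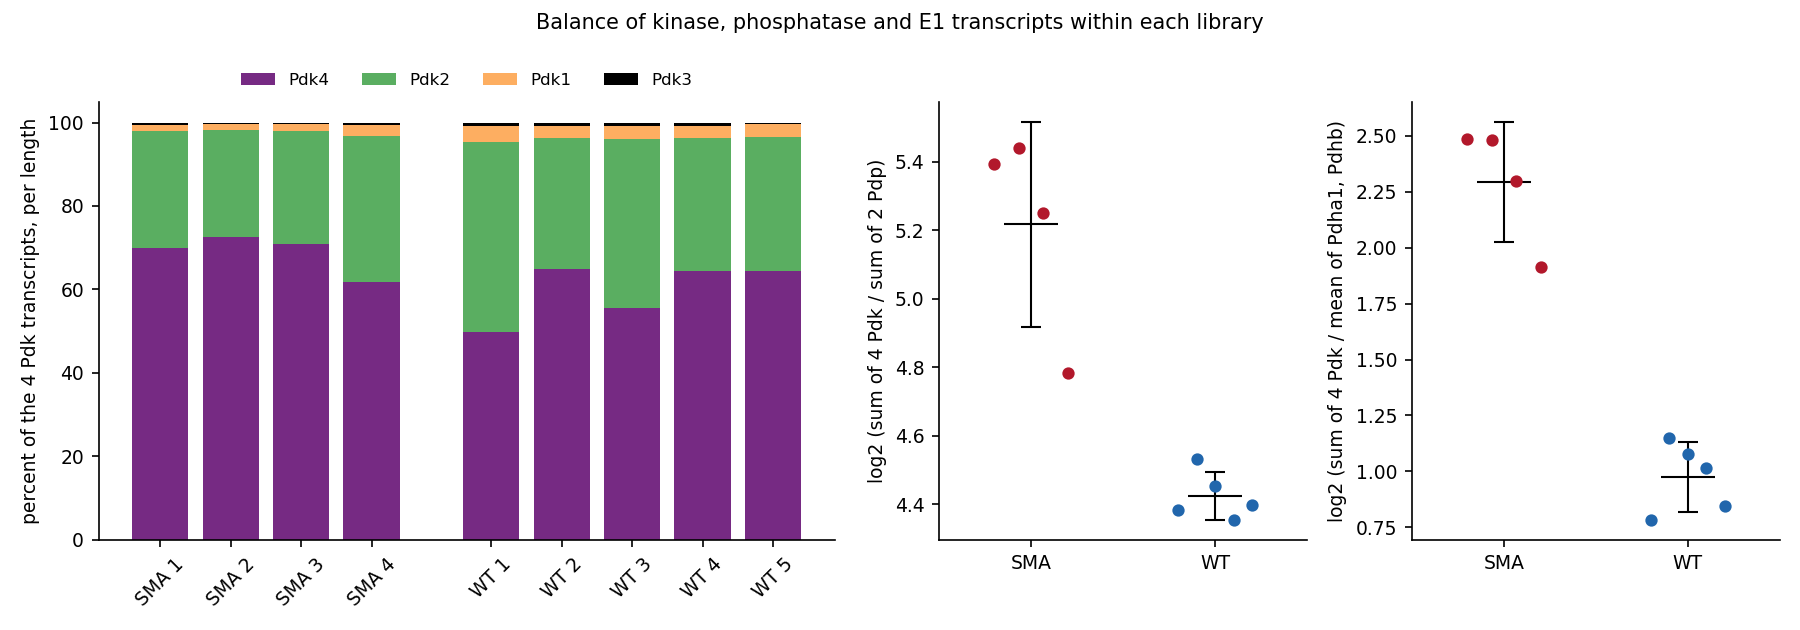
Left, share in percent of the 4 kinase transcripts per length in each library, SMA 1 to 4 and then WT 1 to 5; middle and right, log2 ratio of summed kinase to summed phosphatase transcripts and to the mean of Pdha1 and Pdhb, with points for libraries and bars for mean ± SD (n = 4 and 5; these axes do not start at 0). Pdk4 is the largest share in every library, from 49.8% in WT 1 to 72.6% in SMA 2, and both ratios are higher in every SMA library than in any WT library.

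Per length the order of the 10 transcripts differed at its top. In SMA, Pdk4 led with 371 ± 93.2 CPM per kilobase, followed by Pdk2 at 151 ± 14.5 and Pdha1 at 142 ± 8.77 (SD, n = 4). In WT, Pdha1 at 189 ± 39.1 and Pdk4 at 170 ± 33.4 CPM per kilobase came first, then Pdk2 at 102 ± 14.8 and Pdhb at 101 ± 11.4 (SD, n = 5). Pdhb came next after these in SMA, at 72.5 ± 2.59 CPM per kilobase (SD, n = 4). The libraries of Pdk2 and Pdha1 overlapped in SMA, and those of Pdha1 and Pdk4 and of Pdk2 and Pdhb overlapped in WT. Below these, the order by this length was the same in both groups and no neighbours overlapped. Longest transcripts are shorter than the exon lengths by unlike amounts. They have 5185 against 7779 bases for Pdk1, 4201 against 4507 for Pdp1 and 2377 against 3861 for Pdhb. Order and overlap of neighbours can therefore differ with the length chosen. Dlat had 48.6 CPM per kilobase in SMA and 59.4 in WT, Pdhx 20.2 in SMA and 28.3 in WT, and Pdp1 13.2 in SMA and 12.7 in WT. Pdk1 followed with 9.20 CPM per kilobase in SMA and 8.89 in WT, Pdk3 with 2.56 in SMA and 1.99 in WT, and Pdp2 with 0.922 in SMA and 0.559 in WT.

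The subunit genes were not all in a fixed ratio. The log2 ratio of Pdhx to Dlat, added after the values were seen, was -1.26 ± 0.064 in SMA and -1.07 ± 0.041 in WT, without overlap (SD, n = 4 and 5). That of Pdha1 to Pdhb, likewise added, was 0.965 ± 0.108 in SMA and 0.883 ± 0.138 in WT, with overlap.

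Profiles over the 9 libraries were compared among 10696 genes with a mean of at least 5 CPM, by the root-mean-square difference of centred log2 CPM. All profiles come from the same 9 libraries and include the difference between the groups, so likeness is a description. Genes most like Pdk4 were Bcl2l1 at 0.164, Adgrg1 at 0.177, Zfyve1 at 0.184, Per2 at 0.187 and the fatty acid transporter gene Cd36 at 0.195. Genes most like Pdha1 were 4833439L19Rik at 0.0526, Epdr1 at 0.0588, Vps41 at 0.0608, Uqcrc2 at 0.0613 and Pdhx at 0.0688. From Pdha1, Dlat ranked 16 and Pdhb 110 of 10695 genes, and from Pdk4, Pdk2 ranked 1108.

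Of 12 genes tested for pyruvate supply and its other fates, 3 rose, 4 fell and 5 did not pass, with a median log2 fold change of -0.24. These shares were near the 27.5% and 27.0% over all genes tested. Relative to total counts 4 rose and 4 fell, with a median of -0.0078. Of all 15873 genes tested, 6376 rose and 2165 fell on that scale, with a median of 0.24. Ldha, which encodes the lactate dehydrogenase subunit of fast muscle, fell by 1.23 ± 0.12 on the log2 scale (SE). It had 1379 ± 94.3 CPM in SMA, against 3225 ± 456 CPM in WT (SD, n = 4 and 5). Ldhb, the subunit of oxidative tissue, rose by 1.22 ± 0.12, with 165 ± 26.6 CPM in SMA and 71.0 ± 7.99 CPM in WT. The mitochondrial pyruvate carrier genes Mpc1 (-0.26 ± 0.13) and Mpc2 (-0.20 ± 0.14) did not pass, and Mpc2 stood at 0.054 when scaled to total counts. Without SMA 3, Mpc1 at -0.34 (adjusted p = 0.0351) and Mpc2 at -0.35 (adjusted p = 0.0227) passed by edgeR, and Mpc1 also passed without WT 1 (-0.34, adjusted p = 0.0329). With both WT 5 and SMA 3 left out, Mpc1 (-0.27, adjusted p = 0.0471) and Mpc2 (-0.26, adjusted p = 0.0222) passed too. Without WT 5 alone neither passed, with -0.19 for Mpc1 and -0.11 for Mpc2 (adjusted p = 0.507).

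Of 7 genes of glucose uptake and phosphorylation, 3 rose, 1 fell and 3 did not pass. Their median of 0.11 stood at 0.34 relative to total counts, where that of all genes tested was 0.24. Slc2a1, a glucose transporter gene, rose by 1.19 ± 0.096, and averaged 14.0 CPM in SMA and 6.15 CPM in WT. Slc2a4, a more abundant glucose transporter gene named after its values were seen, rose by 1.09 ± 0.099 (adjusted p = 1.72e-06 by edgeR). It averaged 589 CPM in SMA and 276 CPM in WT. Pfkfb3, which makes an activator of phosphofructokinase, fell by 1.57 ± 0.12. Pfkfb1, in the same list and named after its values were seen, rose by 1.26 ± 0.26 (adjusted p = 0.00262 by edgeR). It averaged 27.0 CPM in SMA and 11.3 CPM in WT. Of 8 genes of acetyl-CoA use, 6 rose and 0 fell. Beside these 2 lists, 27.5% of all genes tested rose and 27.0% fell. Acacb, whose product makes malonyl-CoA at mitochondria, rose by 1.62 ± 0.11, and Slc25a20, the carnitine-acylcarnitine carrier gene, rose by 0.92 ± 0.085. Their adjusted p-values by edgeR were 6.47e-07 for Slc2a1, 5.67e-07 for Pfkfb3, 2.22e-07 for Acacb and 1.96e-06 for Slc25a20.

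Among 15 transcription regulators with textbook links to Pdk4, 7 rose, 2 fell and 6 did not pass, with a median of 0.29. The shares over all genes tested were 27.5% that rose and 27.0% that fell. The 2 regulators that fell, named after their values were seen, were Nr3c1, the glucocorticoid receptor gene, and Hif1a. Nr3c1 changed by -0.62 ± 0.11 (adjusted p = 4.63e-04 by edgeR) and Hif1a by -0.25 ± 0.079 (adjusted p = 0.0153 by edgeR). Relative to total counts 10 of the 15 rose and 1 fell, with a median of 0.50. On that scale 6376 of all 15873 genes tested rose and 2165 fell, with a median of 0.24. Klf15, a glucocorticoid-responsive regulator gene of muscle metabolism, had 63.9, 65.9, 50.8 and 37.1 CPM in SMA and 9.37, 10.9, 12.3, 12 and 19.3 CPM in WT, and rose by 2.09 ± 0.23 (adjusted p = 3.48e-05 by edgeR). As for Pdk4, SMA 4 was its lowest SMA library and WT 5 its highest WT library. Among the 15 regulators SMA 4 was the lowest SMA library for 3, against 23.2% of all genes tested. WT 5 was the highest WT library for 9 of the 15, against 29.5%. Foxo1, a forkhead factor gene of the fasting response, had 52.1, 47.8, 54.6 and 28.3 CPM in SMA and 19.6, 26.4, 21.8, 23.7 and 21.0 CPM in WT, and rose by 1.02 ± 0.17 (adjusted p = 3.89e-04 by edgeR).

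Among 12 PPAR target genes of muscle, 10 rose and 0 fell, against 27.5% and 27.0% of all genes tested. Their median was 0.80, against 0.0060 over all genes tested. The rises included Acot2, a mitochondrial acyl-CoA thioesterase gene, at 3.0 ± 0.11 and Cpt1b, which brings fatty acids into mitochondria, at 1.15 ± 0.092. SMA 4 was the lowest SMA library for 10 of the 12, a count made after the values were seen, against 23.2% of all genes tested. Earlier results of these data had shown the rises of Acot2 and Cpt1b, so they are no independent evidence. The lists of acetyl-CoA use and of PPAR targets had no member that fell relative to total counts either. On that scale 6376 of all 15873 genes tested rose and 2165 fell.

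**Figure D4:**
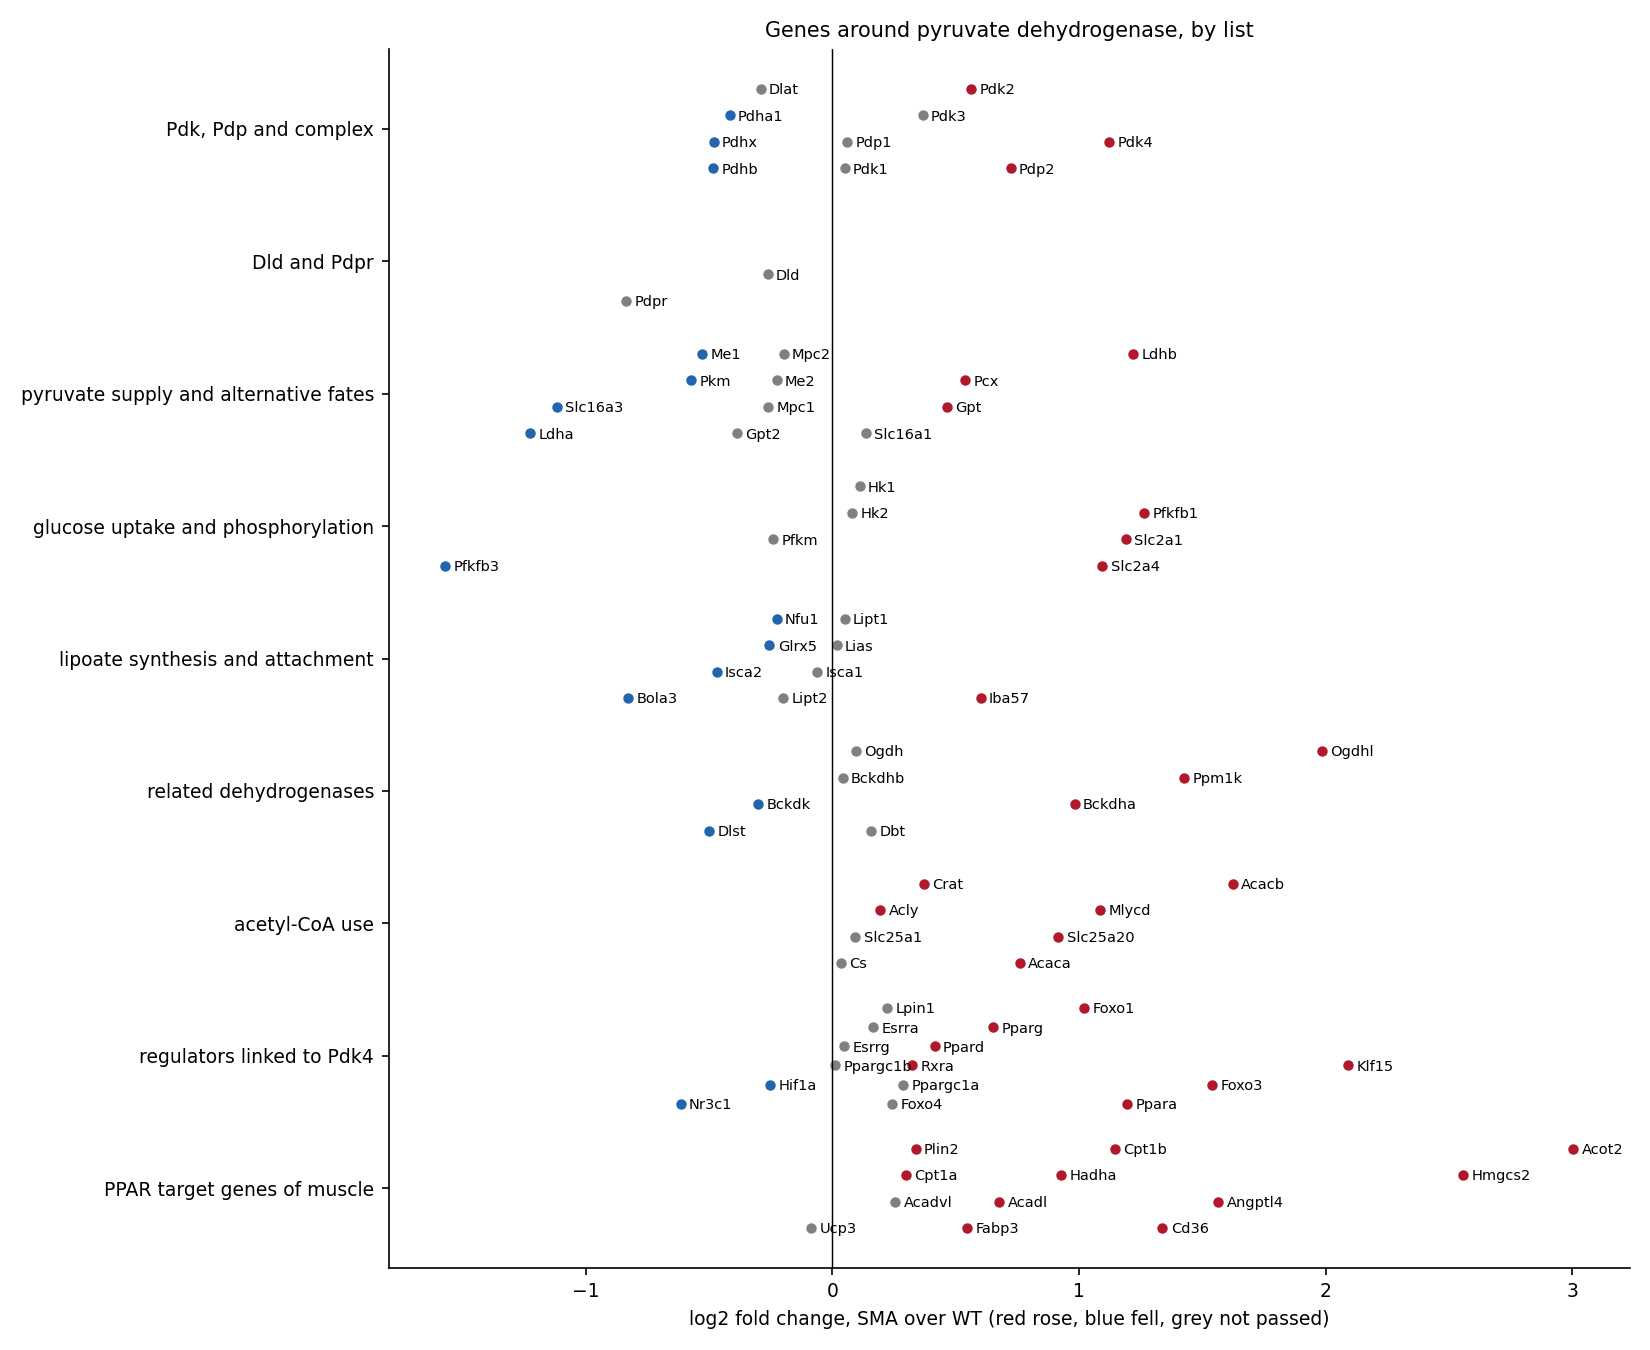
Log2 fold change, SMA over WT (horizontal axis), of every tested gene of the 10 and of 8 lists around them; each point is 1 gene (red rose, blue fell, grey not passed), and height within a list only separates the names. PPAR targets run from -0.086 for Ucp3, which stood at 0.15 relative to total counts, to 3.0 for Acot2, and the 10 genes of the complex and its control from -0.48 to 1.12.

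Markers of other cell types moved as well, where 27.5% of all genes tested rose and 27.0% fell. Summed CPM of 6 adipocyte markers was 506 to 655 in SMA and 293 to 610 in WT, of 4 Schwann cell markers 801 to 1788 in SMA and 321 to 711 in WT, and of 4 fibroblast markers 628 to 913 in SMA and 1182 to 2631 in WT. Among adipocyte markers 1 rose and 1 fell, and their median log2 fold change was -1.09 although their sum was not lower in SMA. All 4 Schwann cell markers rose, and 1 fibroblast marker rose while 3 fell. Summed CPM of 4 brown adipocyte markers was 154 to 257 in SMA and 284 to 498 in WT, and 1 rose while 2 fell. Ucp1, 1 that fell, changed far more than the sum. It had 0.315, 0.320, 1.93 and 1.04 CPM in SMA and 16.9, 40.8, 28.4, 11.3 and 119 CPM in WT. Ucp1 was thus a small part of the sum in SMA, and that sum need not measure brown adipocytes. The sum of 4 macrophage markers was 34.5 to 45.9 CPM in SMA and 67.4 to 87.1 in WT. Over 3 blood markers the sum was 602 to 957 in SMA and 1214 to 2038 in WT. Over 4 endothelial markers it was 436 to 507 in SMA and 438 to 567 in WT. In these 3 lists 2 macrophage, 3 blood and 1 endothelial marker fell, and none rose. Satellite cell markers summed to 24 to 31.8 CPM in SMA and 22.6 to 30.2 in WT, although 3 of the 4 rose and 1 fell. Cardiomyocyte markers summed to 55.1 to 77.5 in SMA and 24.3 to 43.9 in WT, and all 3 tested rose. Liver markers summed to 0.921 to 6.82 in SMA and 0.176 to 0.886 in WT, and the 1 tested rose. The liver markers Alb and Ttr and the atrial marker Myl7 were below 1 CPM in every library. The part of these cells in the levels of the 10 genes was not tested.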

How the data were processed

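Every test used the deposited raw counts, 1 whole number for each gene in each library. The second deposited file, a signal per gene and library, is those counts over a size factor for each library (0.735 to 1.23), equal to median-of-ratios factors computed from the counts. Build mm10, DESeq2 1.16.1 and HTSeq 0.9.1 are named, without a role, per the submitters' processing notes. The aligner, annotation and strand setting were not given in the sources used here.

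Groups and replicate numbers came from the labels. In R 4.3.3, edgeR 4.0.16 (filterByExpr, TMM scaling, robust quasi-likelihood fit, group as the 1 term) was fitted to all 9 libraries. A standard error is the log2 fold change divided by the square root of F, and every ± on a log2 fold change is this SE. Log2 CPM used a prior count of 2. Of 15727 genes tested in simulated counts, 67, 65 and 65 were given changes of 1.5-fold, 2-fold and 4-fold. The fit recovered 53.7%, 76.9% and 98.5% of them, and called 9 unchanged genes. In the real data 54.5% of genes passed, a far larger share than was changed in the simulation. The simulated rates therefore need not hold for the real data. Lengths and positions are those of GENCODE M21.

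The 10 genes, 8 pathway lists and 11 marker lists were chosen with earlier results of these data known. Of 125 other listed entries, 123 were in the table. The text names all 10 genes, Smn1, Dld, Mpc1 and Mpc2, the 2 genes with the lowest adjusted p per pathway list, and the 5 genes most like Pdk4 and Pdha1. Map3k15, Pdha2, Ucp1, Ucp3, Slc2a4, Pfkfb1, Nr3c1, Hif1a, Bckdk, Bckdha, Ogdh, Dlst, Alb, Ttr and Myl7 were named after their values were seen. Alternatives were other scalings, filters and tools (limma 3.58.1, DESeq2 1.42.0), a sex covariate, a replicate block and leaving out libraries.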

Additional observations from a re-analysis of the deposited data

Results flagged for a closer look

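The share of Pdk1 among the kinase transcripts, per length, was 2.49% in SMA 4, against 1.60%, 1.45% and 1.62% in SMA 1 to 3. SMA 4 was set apart because its gap to the nearest SMA library was 0.839 of the whole range of the group, above Dixon's critical value for 4 samples. The level of Pdk1 itself was 76.3 CPM in SMA 4, and Pdk4 had its lowest SMA level there, 854 CPM. In all, 42 groups of values were examined in this way and 1 was set apart, where chance sets apart about 1 in 20.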

How the results depend on the processing

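Calls of Pdk2, Pdk4, Pdp2, Pdhb and Pdhx held under all 18 alternatives. The number of the 10 genes called was 6, and 5 to 8 under the alternatives (5 to 7 with 1 library left out). Over all genes 8648 were called, 7612 to 9063 with 1 library left out and 6867 with a sex covariate. Scaled to total counts, 6376 rose and 2165 fell, so 74.7% of the calls were rises, against 50.4% (4358 rose and 4290 fell) with TMM. Relative to total counts Mpc2 (0.054) and Ucp3 (0.15) reversed, and 4833439L19Rik, Epdr1 and Vps41 lost their calls. The labels do not say whether the same replicate number pairs libraries. Deviations of same-numbered libraries correlated at 0.12, -0.0055, -0.048 and 0.097, which shows no pairing but cannot exclude it. With the replicate block 7892 genes passed, and 5 of the 10, Pdha1 being lost at -0.28 (adjusted p = 0.0659 by edgeR). The difference of the Pdk1 share was -2.97 percentage points without division by length. With 1 library left out, the difference was 6.56 to 11.4 points for the Pdk4 share, -9.51 to -5.17 for Pdk2, -1.59 to -1.22 for Pdk1, -0.292 to -0.159 for Pdk3 and 1.99 to 2.68 for the Pdp2 share. The log2 ratio of kinases to phosphatases differed by 0.719 to 0.938, and that of kinases to E1 by 1.26 to 1.45. Pdp2 and Pdk3 rest on the fewest counts of the 10.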

Other observations

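The branched-chain ketoacid dehydrogenase complex is built and switched like pyruvate dehydrogenase, with its own kinase and phosphatase. Of 8 genes of this and the oxoglutarate dehydrogenase complex, 3 rose, 2 fell and 3 did not pass. Among all genes tested 27.5% rose and 27.0% fell. Relative to total counts 5 of the 8 rose and 1 fell, and of all 15873 genes tested 6376 rose and 2165 fell. Ppm1k, the phosphatase gene of the branched-chain complex, had 30.8 ± 3.37 CPM in SMA and 11.5 ± 1.37 CPM in WT (SD, n = 4 and 5). Ppm1k rose by 1.43 ± 0.11 on the log2 scale (adjusted p = 3.19e-07 by edgeR). Bckdk, the kinase gene of that complex, named after its values were seen, fell by 0.30 ± 0.097 (adjusted p = 0.0182 by edgeR). Bckdha, the E1 alpha gene of that complex, likewise named, rose by 0.98 ± 0.14 (adjusted p = 6.54e-05 by edgeR). The call of Bckdk was lost relative to total counts (-0.055, adjusted p = 0.564), with the replicate block (-0.22, adjusted p = 0.0632) and with sex as a covariate (-0.30, adjusted p = 0.0710), all by edgeR. Ogdhl, a relative of the oxoglutarate dehydrogenase gene, rose by 1.99 ± 0.11, with 21.0 ± 1.18 CPM in SMA and 5.30 ± 0.742 CPM in WT (adjusted p = 3.88e-08 by edgeR). Ogdh itself, named after its values were seen, averaged 734 CPM in SMA and 687 CPM in WT. Its log2 fold change of 0.096 ± 0.15 did not pass (adjusted p = 0.619 by edgeR). Dlst, another of the 8 genes and likewise named, fell by 0.50 ± 0.12 (adjusted p = 0.00252 by edgeR).

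Lipoate is the cofactor bound to Dlat. Of 9 genes of its synthesis and attachment, 1 rose and 4 fell, against 27.5% and 27.0% of all genes tested. Their median of -0.20 stood at 0.028 relative to total counts, where 2 rose and 1 fell. Of all 15873 genes tested, 6376 rose and 2165 fell on that scale, with a median of 0.24. Bola3, an iron-sulfur cluster factor gene needed for lipoate synthesis, fell by 0.83 ± 0.11 (adjusted p = 2.88e-05 by edgeR), and Iba57, another such gene, rose by 0.60 ± 0.095 (adjusted p = 1.67e-04 by edgeR).

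Pdpr, which encodes the regulatory subunit of the phosphatase, varied widely within each group. It had 12.6, 17.3, 6.01 and 15.4 CPM in SMA libraries 1 to 4 and 23.9, 12.6, 24.8, 9.12 and 44.1 CPM in WT libraries 1 to 5. Its log2 fold change of -0.84 ± 0.50 did not pass (adjusted p = 0.197 by edgeR), and was -0.45 without WT 5 (adjusted p = 0.413).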
